A study of Homo sapiens with 18 samples.

Results

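The genes described here were higher in SJSA-1 osteosarcoma cells given the MDM2 degrader MD-224 than in cells given the MDM2 inhibitor MI-1061, both without DNA damage. They were 106 of 3074 listed genes. A member had a mean normalized count with MD-224 of at least 50 and at least 2 times the mean with MI-1061. Its mean with MI-1061 was below 2 times that with DMSO, and its mean after neocarzinostatin alone below 3 times that with DMSO. Its mean after neocarzinostatin with MI-1061 was below 3 times the larger of the DMSO and neocarzinostatin means. Of 152 genes that met the ratio limit 120 met all limits, and 14 of these were left out by symbol (SLC, ZNF, LINC, HIST, KRT and ABCA families, antisense RNAs and 6 single genes). The members were therefore chosen by the measured means of 5 groups, and comparisons among these 5 groups are given below as a description, with no test. The libraries with neocarzinostatin and MD-224 played no part in the choice, and they are tested below against the 2 other neocarzinostatin groups, whose means the rule limited from above.

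MDM2 is the ubiquitin ligase that binds the transcription factor p53, blocks it and marks it for destruction. An inhibitor that occupies the p53 pocket of MDM2 frees p53 but leaves the MDM2 protein in place, and p53 then raises the MDM2 gene itself. A degrader removes the protein. SJSA-1 is an established line from an osteosarcoma, with an amplified MDM2 gene and wild-type p53. Neocarzinostatin (NCS) is an enediyne agent that breaks both DNA strands.

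Poly(A) RNA was sequenced from 18 libraries, 3 for each of 6 groups of SJSA-1 cells. The DMSO group had DMSO alone for 72 h. The MI-1061 and MD-224 groups had DMSO for 72 h with 1 µM of the compound for the last 24 h. The NCS group had 1 µg/mL NCS for 72 h, refreshed after 48 h, with DMSO for the last 24 h. The NCS with MI-1061 and NCS with MD-224 groups had the same NCS treatment with 1 µM of the compound for the last 24 h. All groups are 1 cell line, and the labels do not say whether replicates were separate cultures, so p-values measure only the spread between these libraries, which may be technical. The table lists only genes whose mean after NCS with MI-1061 was at least 1.751 times that of DMSO, which favours high values in that group for every member. In the 13 libraries whose read counts could be recovered, the listed genes held 4490870 to 10535849 reads.

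Promoters of 3 members are shown as the sequence before and around the start of genes that the results below return to. HOGA1 had the largest ratio of MD-224 to MI-1061, PALMD a large ratio but a lower value with MD-224 after NCS, and ARMCX1 is an X-linked member. Each window runs from 250 bases before to 50 bases after the start in RefSeq (GRCh38.p14, plus strand), at chr10:97584139-97584438, chr1:99645863-99646162 and chrX:101550297-101550596. Capitals mark any of the motifs searched on both strands.
HOGA1: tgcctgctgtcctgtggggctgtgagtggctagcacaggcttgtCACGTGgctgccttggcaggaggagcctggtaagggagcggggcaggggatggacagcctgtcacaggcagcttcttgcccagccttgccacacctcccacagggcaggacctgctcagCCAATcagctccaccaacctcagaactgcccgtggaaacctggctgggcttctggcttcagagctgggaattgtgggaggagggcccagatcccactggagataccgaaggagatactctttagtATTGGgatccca
PALMD: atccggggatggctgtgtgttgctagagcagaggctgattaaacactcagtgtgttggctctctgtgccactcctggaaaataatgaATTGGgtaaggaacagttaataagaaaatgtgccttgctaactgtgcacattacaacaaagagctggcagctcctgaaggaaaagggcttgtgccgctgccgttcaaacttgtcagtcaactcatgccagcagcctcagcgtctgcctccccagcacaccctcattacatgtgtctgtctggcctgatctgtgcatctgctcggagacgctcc
ARMCX1: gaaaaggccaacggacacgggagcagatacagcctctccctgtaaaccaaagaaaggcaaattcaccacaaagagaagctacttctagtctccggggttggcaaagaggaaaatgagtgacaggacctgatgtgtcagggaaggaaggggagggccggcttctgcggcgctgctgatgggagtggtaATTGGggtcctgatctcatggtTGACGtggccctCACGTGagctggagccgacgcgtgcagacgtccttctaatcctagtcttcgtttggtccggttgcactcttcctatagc
HOGA1 and ARMCX1 each hold 1 E-box (CACGTG), HOGA1 holds 2 CCAAT boxes, PALMD and ARMCX1 hold 1 each, and ARMCX1 also holds a TGACG site.

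A RefSeq window of 300 bases was found for 77 of the 106 members, 2274 listed genes and 27305 genes in all. The E-box was in 9.09% of the members' windows, 9.81% of those of the listed genes and 7.43% of all. CCAAT stood in 36.4%, 35.3% and 35.7%, the GC box GGGCGG in 66.2%, 64.6% and 44.6%, and TATAAA in 7.79%, 9.28% and 12%. TGACG was found in 26%, 32.2% and 25%, and the ETS core CCGGAA in 15.6%, 20.2% and 17.6%. The AP-1 site TGANTCA was in 5.19%, 7.3% and 7.76%, and the p53 half-site in 6.49%, 6.73% and 6.54%. The half-site sought was that of the p53 consensus. The members' windows had a median GC content of 63.3%, against 64.7% in the listed genes and 58.3% in all. The members' shares lay near those of the listed genes, the widest gap being that of TGACG. A match is a run of letters in this window only.

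Without NCS most members were lower with MI-1061 than with DMSO, and all were higher with MD-224 than with DMSO, as were 81% of listed genes. The ratio limit of the rule favours both directions. The median ratio of group means was 0.667 for MI-1061 over DMSO (range 0.245 to 1.51) and 1.72 for MD-224 over DMSO (1.04 to 3.84). Over all listed genes the same medians were 1.97 and 1.39, so that the typical listed gene was higher with the inhibitor. The mean with MI-1061 lay below that with DMSO in 99 of 106 members (93.4%, against 14.1% of listed genes). It was also the lowest of the 6 group means in 99 (93.4%, against 12% of listed genes). The ratio of MD-224 to MI-1061 had a median of 2.45, quartiles of 2.16 and 3.18, and a highest value of 11.2, against a median of 0.669 over the listed genes.

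Library by library MD-224 and MI-1061 were mostly separate, as the rule asks, while DMSO and MI-1061 overlapped in most members. All 3 MD-224 libraries lay above all 3 MI-1061 libraries in 103 members, where 12.2% of all genes did so. All 3 DMSO libraries lay above all 3 MI-1061 libraries in 43 (4.26% of all genes), and all 3 MD-224 libraries above all 3 DMSO libraries in 71 (42.3%). These counts follow from the rule and are read no further. With TMM scaling, which sets the listed genes' bulk equal between libraries, all-gene medians moved by −0.98 (log2) for MI-1061 against DMSO and by −0.49 for MD-224 against DMSO. The members' median difference from DMSO was then −1.54 with MI-1061 and 0.29 with MD-224, against −0.55 and 0.78 as deposited (log2).

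The members also differed in how NCS moved each compound's level, which is a description since the rule used 3 of these 4 means. The ratio of NCS with MI-1061 over MI-1061 had a median of 3.65 (1.82 to 13.1), against 1.62 over the listed genes. The ratio of NCS with MD-224 over MD-224 had a median of 1.15 (0.514 to 2.61), against 1.36. NCS alone over DMSO had a median of 1.76, against 1.56. The large ratio of the inhibitor groups is favoured by the choice, since the rule asks for low means with MI-1061. The table also lists only genes whose mean after NCS with MI-1061 was at least 1.751 times that of DMSO. The ratio is therefore read no further. NCS with MI-1061 had the highest of the 6 means in 70 members (66%), close to its share of all listed genes (68.2%). NCS with MD-224 had it in 21 (19.8% against 5.99%), MD-224 in 10 (9.43% against 1.01%) and NCS in 5 (4.72% against 1.92%). The rule capped the means with NCS and with NCS and MI-1061, and asked for high means with MD-224. These shares are therefore partly set by the choice and are read no further. A member's group mean had a median of 331 normalized counts in DMSO, 215 in MI-1061 and 545 in MD-224 cells. In NCS-treated cells the medians were 584 for DMSO, 794 for the inhibitor and 619 for the degrader.

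**Figure D1:**
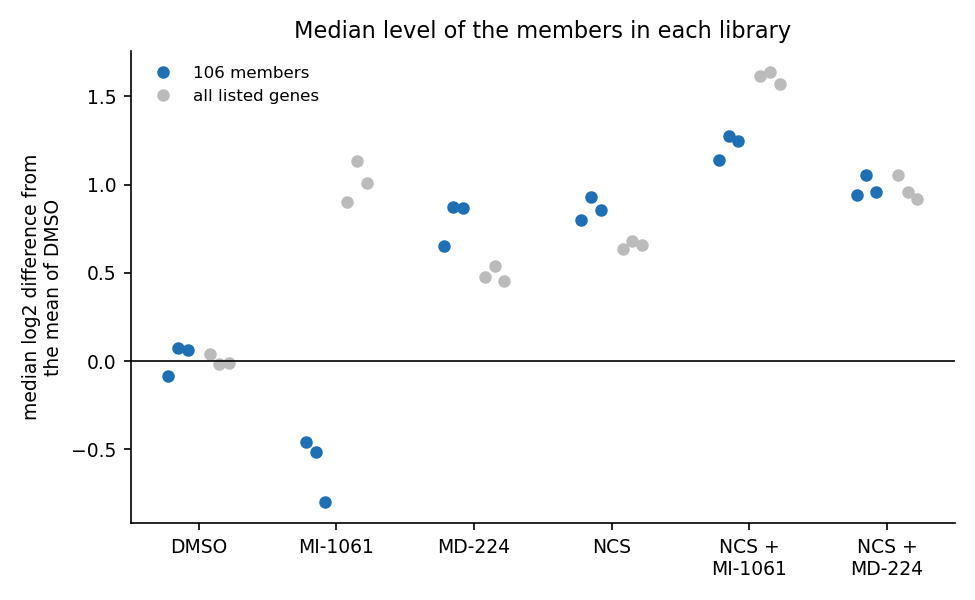
Median over the members, and over all listed genes, of the log2 ratio of each library's normalized count to the mean of the DMSO libraries (y axis), by group (x axis). Each point is a library. The members' medians were −0.46 to −0.80 with MI-1061 and 0.65 to 0.87 with MD-224, while those of all listed genes were 0.90 to 1.13 and 0.45 to 0.54.

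HOGA1, a mitochondrial aldolase of hydroxyproline breakdown, had the largest ratio (chr10:97584389-97612802). Its normalized counts were 29.5, 52.9 and 30.7 with DMSO, 18, 3.6 and 6.15 with MI-1061, and 70, 140 and 102 with MD-224. After NCS they were 30.4, 73.4 and 61.8 with DMSO, 63.1, 217 and 84 with MI-1061, and 48.5, 99.4 and 68.9 with MD-224. The MI-1061 libraries lay below all others without NCS, and the 3 groups after NCS overlapped.

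NKX2-8, a homeobox transcription factor, followed with a ratio of 6.68. Its counts were 10.3, 16.8 and 27.7 with MI-1061 and 119, 108 and 138 with MD-224, and 63.5, 63.4 and 49.1 with DMSO. After NCS the group means were 118 ± 12 (SD, n = 3), 110 ± 17 and 99.5 ± 17.1 for DMSO, MI-1061 and MD-224. The 3 groups without NCS did not overlap, and those after NCS did.

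QPRT, which turns the tryptophan breakdown product quinolinate into a precursor of NAD, was at 41.6, 133 and 67.5 with DMSO, 43.7, 9.59 and 32.3 with MI-1061 and 122, 251 and 184 with MD-224, a ratio of 6.51. Its DMSO libraries overlapped both other groups. CTF1, a cardiotrophin cytokine, was a low member, at 7.72, 15.6 and 12.3 with MI-1061 and 71.1, 79.8 and 62.8 with MD-224, a ratio of 6.01. PALMD, the cytoskeletal protein palmdelphin, had a ratio of 5.97, with counts of 188, 94.7 and 154 for MI-1061 and 850, 863 and 891 for MD-224. The spread with MD-224 was small beside that distance in PALMD.

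FBXO2 encodes an F-box protein, the substrate-binding part of a ubiquitin ligase, and LRRC29 is an F-box relative that RefSeq lists as a transcribed pseudogene. LRRC29 was at 41.2, 25.2 and 38.4 with MI-1061 and 121, 262 and 171 with MD-224, a ratio of 5.28. FBXO2 was at 12.9, 51.6 and 18.4 with MI-1061 and 56.2, 201 and 99.5 with MD-224, a ratio of 4.3. In FBXO2 replicate 2 was the highest library of each group without NCS.

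RBM43, an RNA-binding protein, was at 100, 101 and 70.7 with MI-1061 and 353, 473 and 538 with MD-224, a ratio of 5.02. DMRTA1, a DM-domain transcription factor, was at 100, 69.5 and 46.1 with MI-1061 and 437, 308 and 304 with MD-224, a ratio of 4.86. Neither gene's groups overlapped. SATB1, which organizes chromatin loops, had 333, 386 and 352 counts with MI-1061, 566, 770 and 639 with DMSO, and 1352, 1710 and 1792 with MD-224. In SATB1 the order from inhibitor to vehicle to degrader held with no overlap of libraries.

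ARMCX1, an armadillo-repeat protein of mitochondria, had 545, 257 and 389 counts with MI-1061 and 1650, 1485 and 1949 with MD-224. TTC12, needed for assembly of ciliary dynein arms, had a ratio of 3.91, with 68.2, 132 and 72.2 counts with MI-1061 and 281, 408 and 376 with MD-224. Both genes' groups were separate. MAGED2, of the melanoma antigen family, had the highest normalized counts of the members, not corrected for gene length, with 7944, 5568 and 6812 counts with MI-1061 and 13197, 13113 and 14614 with MD-224. It also lay near the limit, as did EDNRA and ZHX2, with ratios of 2.01 each. Just outside were MAGED1 at 1.98, CNTN3 at 1.98 and KLHDC1 at 1.97.

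**Figure D2:**
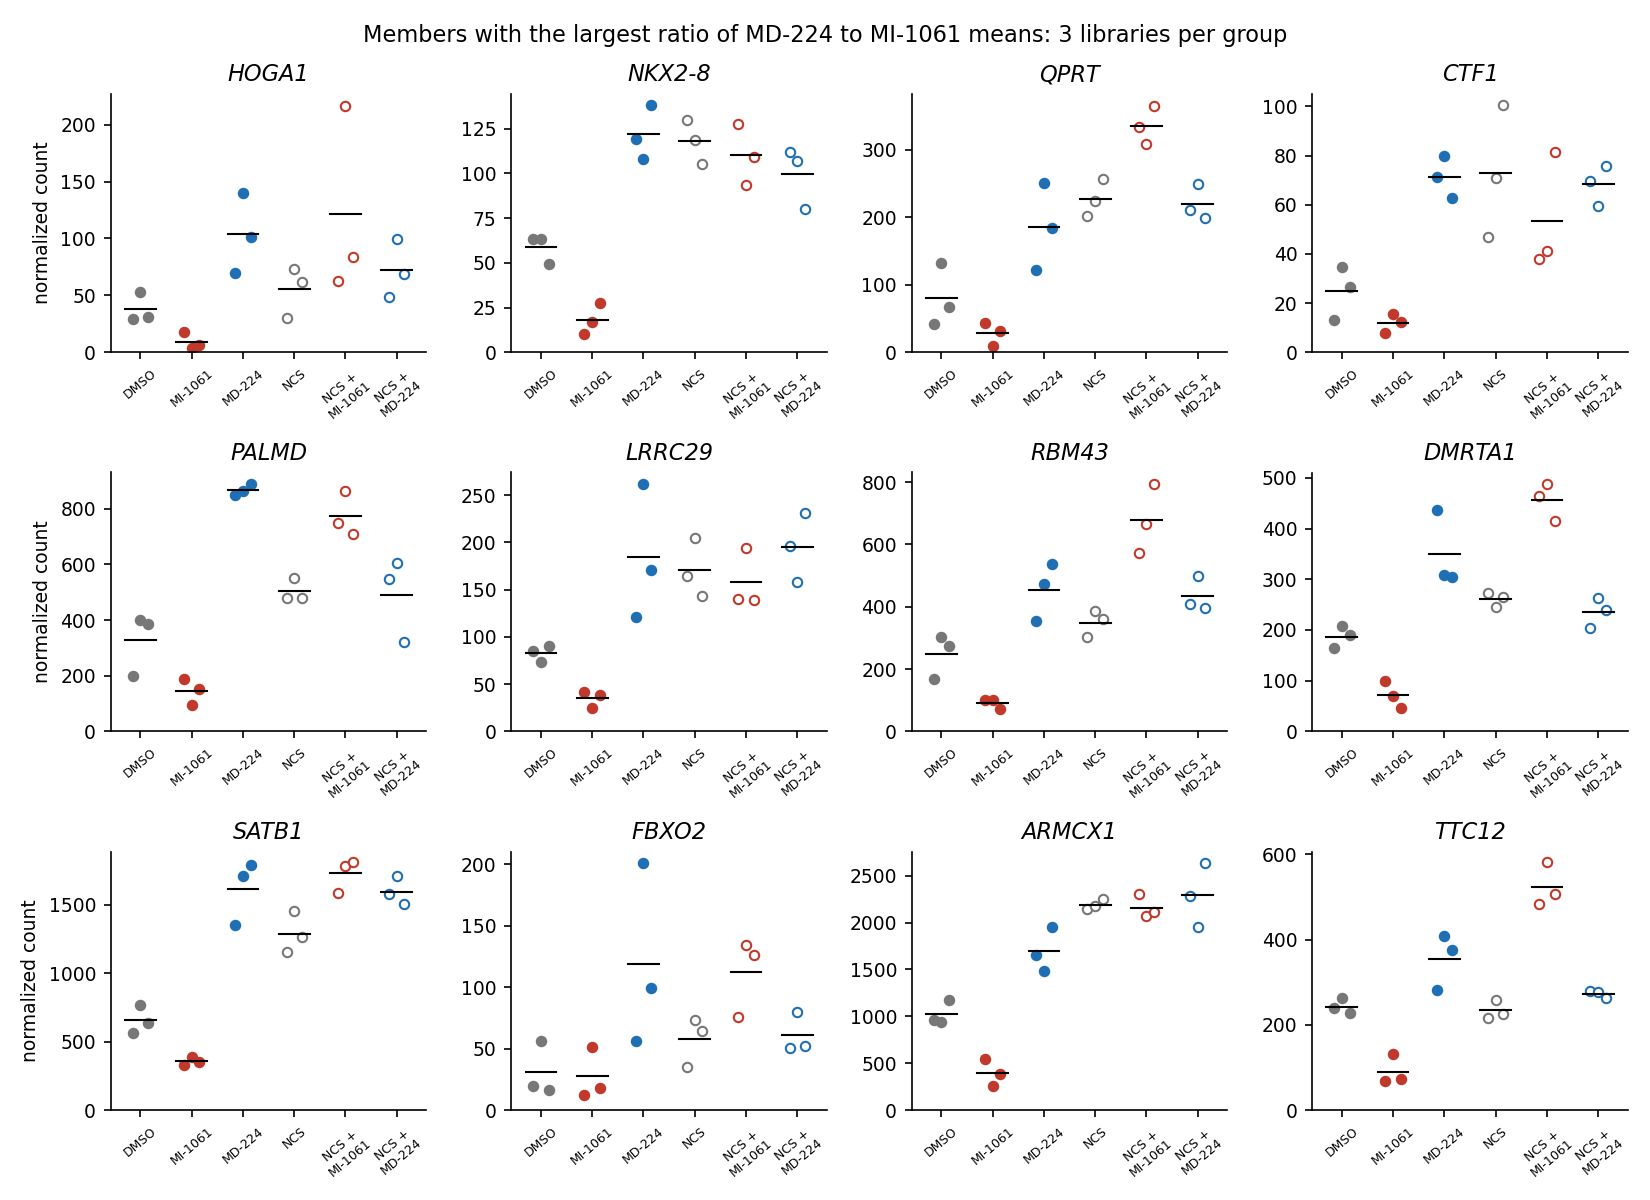
Normalized counts (y axis, from 0, a scale per panel) of the 12 members with the largest ratio of MD-224 to MI-1061 means, by group (x axis). Each point is a library, filled without NCS and open after NCS, and each line is the mean of 3 libraries. The MI-1061 points are the lowest group mean in every panel, and the open MI-1061 points are not.

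After NCS, on the deposited scaling, most members were called neither higher nor lower with the degrader than with the inhibitor. In the libraries with NCS and MD-224, 2 members were higher than with NCS and MI-1061, CARD6 and FAM214B, and 29 were lower, with 75 neither. That is 1.89% and 27.4% of 106, where 0.748% of all genes were called higher and 54.7% lower (limma, Benjamini-Hochberg adjusted p under 0.05). The median fold over the members was 0.844, against 0.629 over all genes. The rule used 1 side of this comparison: it capped the NCS with MI-1061 mean, and the table lists only genes raised there. The gap between the members and all genes in these shares and medians is therefore partly set by the choice and is read no further. All 3 NCS with MI-1061 libraries lay above all 3 NCS with MD-224 libraries in 42 members (67.7% of all genes), and all 3 below in 6 (1.69% of all genes).

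These directions depend on the scaling. The TMM factors came from the listed genes alone, all higher after NCS with MI-1061 than with DMSO, so TMM scaling removes a rise that they share. TMM scaling moved the median of all genes by 0.66 (log2), and then 30 members were called higher and 1 lower, with a members' median of 0.42, while of all 3073 genes 357 were higher and 550 lower. Of the called members CARD6, FAM214B and SCD5 kept both direction and call under it. Blocking on the replicate number gave 5 higher, adding PLXNA3, RAB27B and ZDHHC1, and 37 lower, beside 34 and 1883 of all genes. On the deposited scaling without a block, the 95% interval of the difference stayed below a 2-fold rise with MD-224 in 99 of 106 members. It reached a 2-fold fall in 34 and lay within 2-fold either way in 65.

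**Figure D3:**
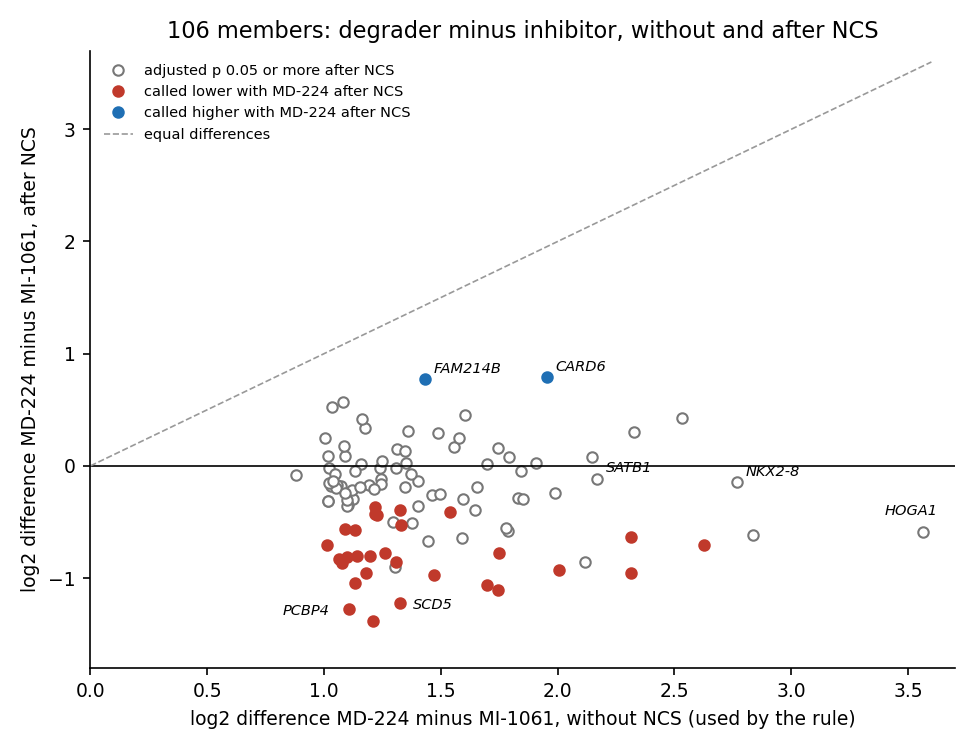
Log2 difference of MD-224 minus MI-1061 for each of the 106 members without NCS (x axis, used to choose them) and after NCS (y axis, not used for MD-224). Filled points passed the limma test after NCS, and 2 lie above 0 and 29 below, and all points lie below the line of equal differences.

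SCD5, a stearoyl-CoA desaturase that makes monounsaturated fatty acids, had the smallest adjusted p of the members. Its counts were 960, 674 and 790 with MI-1061 and 2031, 1898 and 2100 with MD-224 without NCS. After NCS they were 4242, 3771 and 4108 with MI-1061 and 2170, 1717 and 1382 with MD-224. The groups did not overlap in either condition, and their order was opposite. After NCS the difference was −1.22 (log2, SE 0.157, limma adjusted p = 5.86e-06).

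TMEM117, a membrane protein, was at 465, 464 and 477 with MD-224 against 257, 179 and 211 with MI-1061. After NCS it was at 658, 584 and 445 with MD-224 and 1122, 1144 and 1178 with MI-1061, a fold of 0.484 (limma adjusted p = 7.73e-05). PCBP4, a poly(C) RNA-binding protein, was at 2068, 2894 and 1583 after NCS with MD-224 and at 4042, 7572 and 4395 with MI-1061. Its fold was 0.413 with a limma adjusted p of 0.0004, and no libraries of the compounds overlapped.

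BBS4, a subunit of the BBSome that carries cargo to cilia, had a fold of 0.572 and DIXDC1, a Wnt signalling protein, one of 0.575. For PROCR, the protein C receptor, it was 0.563, and for NUDT18, a hydrolase of oxidized nucleotides, 0.615. Their limma adjusted p-values were 0.000398, 0.000374, 0.00107 and 0.00088. In all 4 genes every NCS with MI-1061 library was above every NCS with MD-224 library. NAP1L2, a nucleosome assembly protein, had 2794, 2811 and 2924 counts with MI-1061 and 1649, 1428 and 1648 with MD-224.

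Of the members with the largest ratios without NCS, PALMD, RBM43, DMRTA1 and TTC12 were called lower after NCS, with folds of 0.613, 0.645, 0.515 and 0.524. HOGA1, NKX2-8, QPRT, CTF1, LRRC29, SATB1, FBXO2 and ARMCX1 did not pass the test. Their folds were 0.664, 0.904, 0.654, 1.34, 1.23, 0.924, 0.552 and 1.05. The interval for SATB1 ran from −0.43 to 0.20 (log2), and that for HOGA1 from −1.72 to 0.54. The precision for HOGA1 was thus much lower, and a 2-fold fall lay inside its interval. PALMD, RBM43 and ZBTB4, a zinc finger repressor, each lost their call when single libraries were left out. Without NCS with MD-224 replicate 3 the values were −0.43, −0.57 and −0.37 (log2, limma adjusted p = 0.236, 0.0962 and 0.0616). PALMD moved most there, its replicate 3 being at 320 counts beside 546 and 604. All 3 calls were also lost without other single libraries, and under TMM scaling the values were −0.04, 0.032 and 0.27.

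CARD6, a caspase recruitment domain protein of NF-kB signalling, had the smaller adjusted p of the 2 members called higher. It had 265, 189 and 188 counts with MI-1061 and 776, 792 and 901 with MD-224. After NCS it had 1063, 1093 and 1069 with MI-1061 and 1593, 1787 and 2270 with MD-224, a fold of 1.73 (limma adjusted p = 0.000788). With NCS alone it stood at 1556, 1609 and 1535, so that the inhibitor libraries were below both other NCS groups. FAM214B had a fold of 1.71 (limma adjusted p = 0.0208), with 899, 656 and 645 counts with MI-1061 and 1188, 1242 and 1295 with MD-224.

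After NCS the members with MD-224 lay near their level with NCS alone. In the main model, which has no replicate block, none of the 106 was called higher or lower than with NCS alone. Of all genes 15.1% were called higher and 0% lower there (limma). The rule capped the NCS mean of the members too, so these shares are also not independent of it. Of the members 5 had an unadjusted p under 0.05, all higher. On simulated data this test found 15% of 1.5-fold and 42.5% of 2-fold changes. A lack of calls therefore does not show that members were unchanged. The simulation changed fewer genes than were called here, in both directions and without pairing, so its shares need not hold for the members. The median fold was 1.11 in the members and 1.23 in all genes. EdgeR and DESeq2 on recovered reads, with 13 libraries over all groups, also called 0 members, with 0 and 4 at an unadjusted p under 0.05. NCS replicate 3 and NCS with MD-224 replicate 2 had no accepted reads. Both compared groups were thus smaller there than in the limma fit. All 3 NCS with MD-224 libraries lay above all 3 NCS libraries in 24 members (40.8% of all genes) and below in 2 (1.04%). The interval stayed below a 2-fold rise in 92 members and within 2-fold either way in 88.

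The smallest limma adjusted p was that of BBS4, 0.0792, at 1.35-fold. NUDT18 followed at 1.31-fold (limma adjusted p = 0.0955), MPZL3, an immunoglobulin-domain membrane protein, at 1.42-fold (0.121) and NAP1L2 at 1.4-fold (0.155). With the replicate number as a block 4 members were called higher, beside 755 of the 3073 genes tested. Among the 4 were BBS4, COMTD1 and RAB27B, with adjusted p-values of 0.025, 0.0489 and 0.0462 (limma). Under TMM scaling 1 member was called lower, AK4 (−0.59 on the log2 scale, limma adjusted p = 0.0371), beside 6 of all genes.

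Of the 4 members with the highest mean with MD-224 without NCS only ZBTB4 was called between the compounds after NCS, on the deposited scaling. MAGED2 was at 11458, 12695 and 12930 with MI-1061 and 12018, 11858 and 12594 with MD-224, and its interval was −0.30 to 0.25 (log2). POLD4, the small subunit of DNA polymerase delta, was at 5233, 5660 and 5358 and at 6138, 7010 and 6825. CHMP2A, an ESCRT-III subunit of membrane scission, had a fold of 0.881, and ZBTB4 one of 0.76 (limma adjusted p = 0.02). Under TMM scaling POLD4, MAGED2 and CHMP2A were called higher with MD-224, by 0.96, 0.64 and 0.48 (log2), and ZBTB4 was not called.

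By the roles assigned to them after their names were known, 18 members were enzymes of metabolism, 18 acted on transcription, chromatin, DNA or RNA, and 14 in membrane traffic, autophagy or cilia. Ligands, receptors and secreted proteins numbered 11, kinases and signalling adaptors 9, muscle and cytoskeletal proteins 4 and F-box proteins 3, with 29 others. The nuclear group had a median ratio of MD-224 to MI-1061 of 2.76 without NCS and 0.701 after it, with 9 of 18 called lower, among them HOXA5, a homeobox factor, and TFEB, which drives lysosomal genes. The metabolic group, SCD5, QPRT and HOGA1 among them, had 2.43 and 0.814 with 4 lower, and the traffic group 2.29 and 0.844 with 4 lower. Ligands and receptors, EDNRA (the endothelin receptor) and IL7 (a lymphocyte growth cytokine) among them, had a median ratio of 0.923 after NCS with 2 lower. The kinases and adaptors, with CARD6 and DIXDC1, had 2.49 and 0.738, with 4 lower and 1 higher. The 3 F-box genes had 4.3 and 0.889, with none called. No group had more than 1 member called higher after NCS. Over all genes 54.7% were called lower, so the share of the nuclear group lay near that of any listed gene and is no trait of the group. These calls are on the deposited scaling. With TMM scaling the 1 lower call was SCD5.

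By RefSeq class 99 members are protein-coding genes, 3 lncRNAs and 3 transcribed pseudogenes (LRRC29, MBL1P and MTMR9LP), whose reads may be shared with a related gene. By location 11 of 105 placed members were on chromosome X (10.5%), against 109 of 2998 placed listed genes (3.64%). They were ARMCX1, ARMCX3, GPRASP1, NXF3, TBC1D8B, MAGIX, NAP1L2, MAGEH1, TMEM187, PLXNA3 and MAGED2. ARMCX1 (chrX:101550547-101554700) and ARMCX3 (chrX:101623151-101627843) are neighbouring members of 1 family. GPRASP1, which sorts receptors to lysosomes, lies at chrX:102651483-102659083. The X-linked members had a median ratio of 2.45 without NCS and 0.983 after it, against 0.669 and 0.628 over all listed genes. On the deposited scaling 0 were called higher and 2 lower after NCS, where 0.748% and 54.7% of all genes were. Under TMM scaling ARMCX1, NXF3, MAGIX, PLXNA3 and MAGED2 were called higher, beside 357 of all genes. Neighbouring family members are not independent, and the excess of members on chromosome X was not tested.

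**Figure D4:**
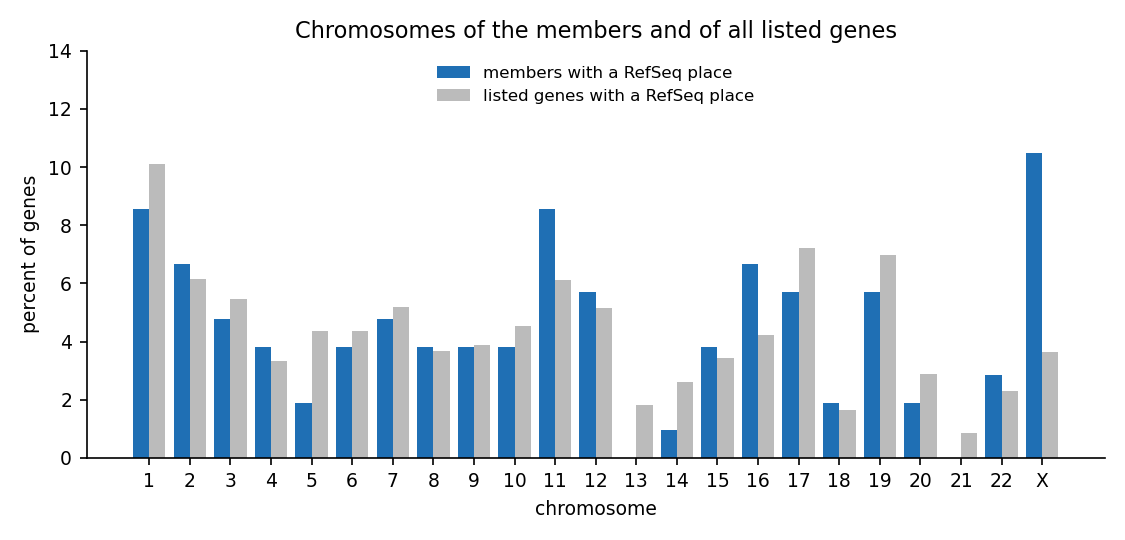
Percent of placed members and of placed listed genes on each chromosome (x axis, chromosome; y axis, percent). Chromosome X holds 10.5% of the members and 3.64% of the listed genes.

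None of the 40 p53 targets chosen for comparison is a member, which the rule favours, since it leaves out genes well raised by MI-1061. Whether members outside this choice are p53 targets was not checked. Of 40 p53 targets 38 are listed. After NCS 36 were lower with MD-224 than with MI-1061 and 0 higher, at a median fold of 0.431. Against NCS alone 34 were higher. The same shares of all genes were 54.7% lower and 0.748% higher, at a median fold of 0.629, and 15.1% higher. With TMM scaling 19 of the targets were lower and 1 higher than with MI-1061, beside 550 and 357 of all genes. MDM2 had a fold of 0.336 after NCS (limma adjusted p = 9.5e-07), and CDKN1A, the p21 inhibitor of the cell cycle, 0.428. Without NCS the same folds were 0.262 and 0.255.

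Of markers of other cell types, 3 of 9 haematopoietic genes, 2 of 6 endothelial genes and 0 of 9 epithelial genes are listed, and none is a member. Of 10 bone lineage genes 2 are listed, SPP1 and BMP2. After NCS 2 of the 3 haematopoietic genes, 1 of the 2 endothelial and 1 of the 2 bone genes were lower with MD-224 than with MI-1061. Integrated stress response genes had 5 of 7 lower, matrix and adhesion genes 3 of 8 and neuronal genes 2 of 6. Each list had 0 higher, on the deposited scaling. Over all genes 54.7% were lower and 0.748% higher, so the counts of these small lists are read no further. With TMM scaling the matrix list had 2 higher and 1 lower and the neuronal list 2 and 2, beside 357 and 550 of all genes. Whether cell composition or RNA amount moved with the groups was not tested, and in bulk RNA fewer cells of a type and less RNA per cell cannot be told apart.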

How the data were processed

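RNA of 18 libraries of SJSA-1 cells was analysed from 1 table of normalized counts, which is a signal in the sense that the authors deposited counts already divided by a factor per library. Per the submitters' processing notes GRCh38 was the build, with HISAT2 (version 2.0.5.2), featureCounts (version 1.6.3) and, among the tools listed, DESeq2 (version 2.11.40.6). In 13 libraries values up to 2000 reads were whole multiples of 1 read in 100% of cases (tolerance 0.01 reads), and the other 5 libraries gave no accepted step. The members, gene lists and roles were chosen with earlier results of these data known. The label of the treatment protocol spells the inhibitor with digits in another order, and the titles were followed.

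A gene was tested if 3 or more libraries reached a value of 10, which 3073 genes did, the 106 members among them, and 1 did not. Its log2(value + 1) entered a single limma model of the 6 groups with a variance trend (limma 3.58.1 under R 4.3.3), with Benjamini-Hochberg adjustment over all tested genes and a threshold of 0.05. Fold changes are on the log2(value + 1) scale and understate changes of low genes. Alternatives were other pseudocounts and filters, TMM scaling over the listed genes, a replicate block, only the compared groups, leaving out each library and, chosen after seeing the data, edgeR 4.0.16 and DESeq2 1.42.0 on the recovered reads. The statistics were tested on simulated data with known changes in both directions and no pairing, for NCS with MD-224 against NCS. The fit recovered 15% of 1.5-fold, 42.5% of 2-fold and 82.1% of 4-fold changes, with 1 false call. Like-numbered libraries had residual correlations of 0.198 to 0.428 for NCS with MD-224 against NCS with MI-1061 and 0.119 to 0.416 against NCS. The numbers were therefore taken to pair the libraries, from the data alone. The main model left this pairing out, so its p-values and counts ignore it, and only the replicate block uses it. The members named were the 12 with the largest ratio of MD-224 to MI-1061, the 8 and 4 with the smallest adjusted p in the comparisons after NCS, the 4 with the highest mean with MD-224 and the 3 nearest the limit. Other members named, FAM214B, PLXNA3, RAB27B, ZDHHC1, COMTD1, AK4, HOXA5, TFEB, IL7 and the X-linked genes among them, were chosen after their values were seen. The values of 1 member are not reported here. Names matched a RefSeq symbol in 99 members, a synonym in 6 and none in 1. Promoters and coordinates are from RefSeq (GRCh38.p14). Python 3.11.15 with matplotlib 3.10.9 made the figures.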

Additional observations from a re-analysis of the deposited data

Results flagged for a closer look

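In 42 members (39.6%) all 3 MD-224 libraries lay above all 3 MI-1061 libraries without NCS, and all 3 lay below after NCS. The rule made the first direction, and the difference between the conditions was not tested. Among the named members the log2 difference of NCS with MD-224 minus NCS with MI-1061 was −1.28 in PCBP4, −1.22 in SCD5, −1.05 in TMEM117, −0.96 in DMRTA1 and −0.93 in TTC12. It was −0.85 in NAP1L2, −0.83 in PROCR, −0.81 in BBS4, −0.8 in DIXDC1, −0.71 in PALMD and −0.7 in NUDT18. RBM43 had −0.63, QPRT −0.61, ZBTB4 −0.4 and ZHX2 −0.32. QPRT and ZHX2 did not pass the limma test after NCS (adjusted p = 0.258 and 0.0838). In the table as a whole 67.7% of genes had all NCS with MI-1061 libraries above all NCS with MD-224 libraries. That share exceeds the members' 39.6%. The rule capped the members' mean after NCS with MI-1061, so this gap is partly set by the choice and is read no further.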

How the results depend on the processing

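The number of members followed the rule's settings: 47 at a ratio of 2.5, 315 with TMM scaling, which holds all 106, and 86 to 130 with 1 library left out. For NCS with MD-224 against NCS with MI-1061, TMM scaling gave 30 members higher and 1 lower and 357 genes higher and 550 lower, against 2, 29, 23 and 1680 in the values reported. Under it RBM43 (0.032), SATB1 (0.55), MAGED2 (0.64), ZBTB4 (0.27) and CHMP2A (0.48) turned to higher with MD-224 (log2). The median of all genes shifted the same way, since TMM scaling removes the rise that the listed genes share after NCS with MI-1061. Nothing beyond that shift was tested. The replicate block, which pairs like-numbered libraries, gave 5 members higher, 37 lower and 34 genes higher, and against NCS 4 members and 755 genes higher, and changed no other count by over 1.5 times. With only the compared groups 5 members were higher, 34 genes higher and, against NCS, 3 members higher. Leaving out 1 library gave 1 to 2 members higher, 18 to 25 lower (18 without NCS with MI-1061 replicate 2), 10 to 20 genes higher (10 without NCS with MD-224 replicate 3, 15 without NCS with MI-1061 replicate 1) and 1448 to 1610 lower. Against NCS it gave 0 members and 186 to 463 genes higher (186 without NCS with MD-224 replicate 1). TMM scaling gave 116 genes higher, 6 lower and 1 member lower there, and edgeR 165 genes higher and DESeq2 335. Other pseudocounts and filters kept every count of calls after NCS within 1.5 times. Tests on counts were not run for NCS with MD-224 against NCS with MI-1061, since no NCS with MI-1061 library had accepted reads.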
